A study of Danio rerio with 11 samples.

Results

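Cilia are built from a shared set of genes, and 76 of the 35889 genes in a count table of zebrafish ovarian follicles carry names from that set. They encode axonemal dyneins and their assembly factors, the intraflagellar transport (IFT) machinery, the BBSome, radial spokes, the nexin-dynein regulatory complex, tektins, cilia and flagella associated proteins (CFAP) and the transcription factor foxj1. The genes were taken by the start of their symbol, and 55 of them reached 10 or more counts in at least 3 of the 11 libraries. The members were chosen by these counts and their names, and the set was chosen on the level of dnaaf1, which was lower in both mutants, so dnaaf1 is described here without a test and is left out of every count and median of differences. Of the 55, 54 passed the count filter of the test across all genes, cfap43 being the exception. Tekt4 alone among these had no control library at 10 counts and entered through the mutants, so it too is described without a test, which leaves 52 genes in those counts.

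The libraries are bulk RNA-seq of full-grown follicles over 650 µm, enriched on a 600 µm filter, from adult female zebrafish (Danio rerio) at 180 days after fertilisation. Follicles of this stage hold an oocyte and its wall of granulosa and theca cells. The question of the design is how transcription in the follicle differs when luteinizing hormone (Lh) signalling, or Lh receptor together with follicle-stimulating hormone (Fsh), is removed. The 3 control libraries are fshb+/-;lhb+/-;fshr+/-;lhcgr+/-, so the controls carry a mutant copy of each of the 4 genes. The 4 lhb/lhcgr mutant libraries are fshb+/-;lhb-/-;fshr+/-;lhcgr-/- and lack Lh and its receptor. The 4 fshb/lhcgr mutant libraries are fshb-/-;lhb+/-;fshr+/-;lhcgr-/- and lack Fsh and the Lh receptor. All 3 groups are heterozygous for fshr, and both mutant groups lack lhcgr. The labels do not state the kind of allele, the number of follicles pooled, or that replicates are separate fish, so each p-value reflects no more than the spread among these libraries, which may be technical.

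A cilium is a microtubule axoneme anchored in a basal body and covered by membrane. IFT trains, driven by kinesin and dynein motors, carry its building blocks in and out, and the BBSome moves membrane proteins along them. Every cell with a cilium uses these transport genes, whereas outer and inner dynein arms, radial spokes and tektins belong to motile cilia and sperm tails. Dynein arms are put together in the cytoplasm by assembly factors before they enter the cilium, and in zebrafish foxj1 factors switch on the motile programme. Follicle cells of mammals can carry a primary cilium, which does not beat.

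Libraries held between 14179252 and 25484718 counts. Lhb/lhcgr mutants 3 and 4 were the closest pair across genes (r = 0.986), and their counts still differed by 22.8 times the variance that counting alone gives, against up to 101 times in other pairs of 1 group. CPM are the counts of a gene per 1e6 counts of its library, with library sizes scaled by the TMM method. Oocyte markers summed to between 2773 and 4815 CPM and granulosa markers to between 431 and 1290 CPM in the 11 libraries. The granulosa list includes lhcgr and fshr, which are among the mutated genes. The targeted lhb, at 19.7 to 38.1 CPM in controls, was at 0.371 to 9.78 CPM in lhb/lhcgr mutants and at 1.65 to 7.49 CPM in fshb/lhcgr mutants, which keep an lhb copy. Transcripts of lhcgr were at 104 to 336 CPM in controls, 115 to 188 CPM in lhb/lhcgr mutants and 102 to 171 CPM in fshb/lhcgr mutants, and fshb was at or under 0.409 CPM everywhere. Those of fshr were at 5.42 to 22.5 CPM in controls, 41.6 to 53.9 CPM in lhb/lhcgr mutants and 13.3 to 32.0 CPM in fshb/lhcgr mutants. For fshr every lhb/lhcgr mutant thus lay above both other groups. Since the kind of allele is not stated, these levels do not check the labels.

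Transport genes lay mostly near the middle of expression in these follicles and dynein heavy chains at its low end. Levels between genes were compared in FPKM, which divides by gene length, averaged over the 11 libraries. The 20 IFT and BBSome genes had a median level of 4.51 FPKM (range 0.919 to 28.9), close to the middle of all tested genes at a median percentile of 48.4, and 19 of them had at least 10 counts in every library. The 31 dynein, radial spoke, tektin and CFAP genes had a median level of 0.417 FPKM, a median percentile of 9.90, and 14 of them had 10 counts in every library. Low genes also varied more between libraries: the highest library was a median of 2.17 times the lowest for IFT and BBSome genes, and 6.01 times for axonemal genes without a 0, while 6 axonemal genes had 0 counts in some library.

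**Figure D1:**
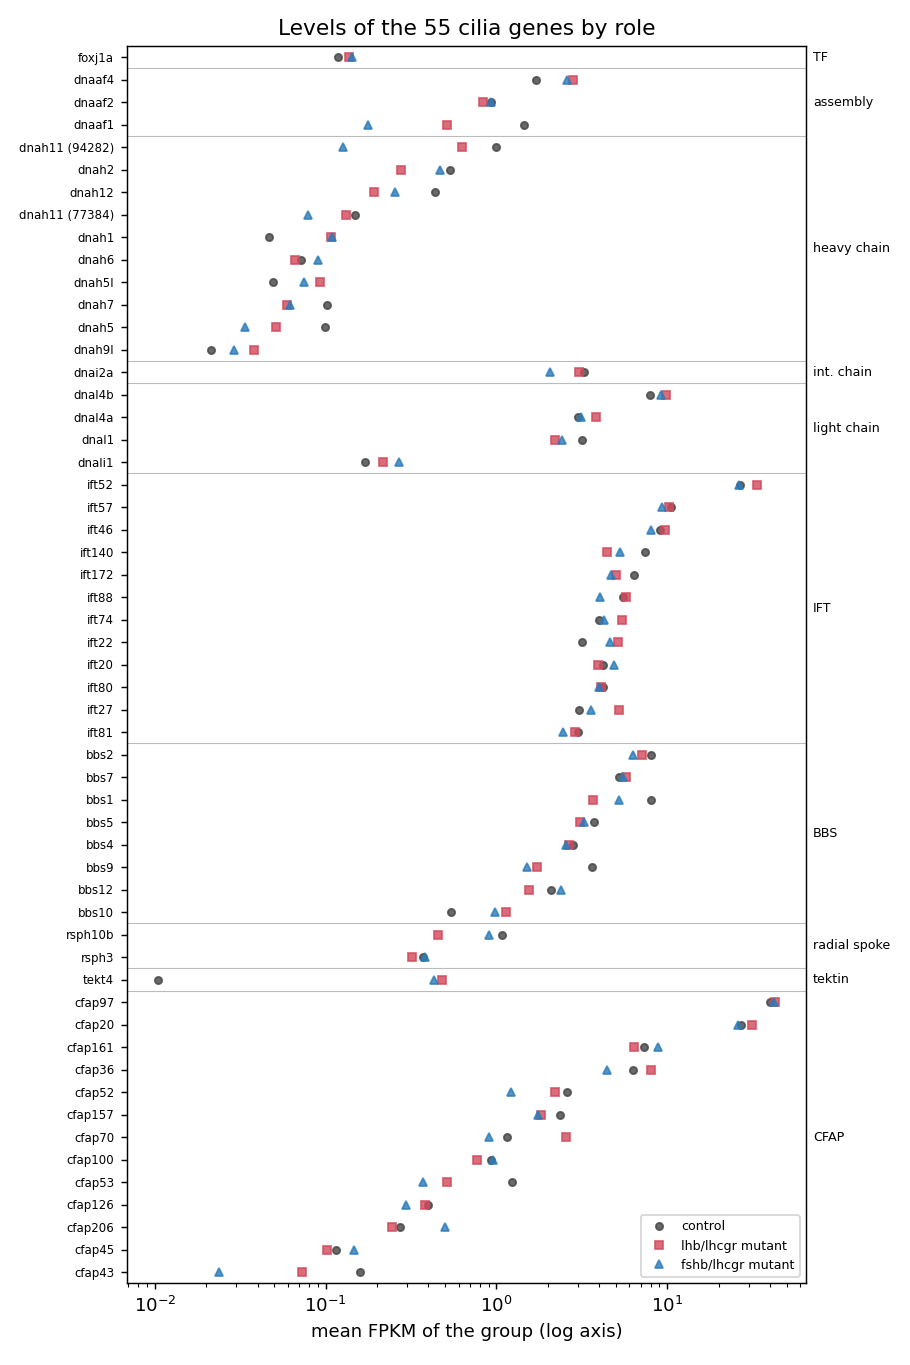
Mean FPKM of the 55 genes in each group on a log axis, ordered by role, with a point per group. IFT and BBSome genes lie between 0.919 and 28.9 FPKM averaged over libraries, while the 10 dynein heavy chains lie between 0.030 and 0.546 FPKM.

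The highest levels belonged to cfap97 at 41.9 FPKM, to ift52, an IFT-B subunit, at 28.9 FPKM, and to cfap20, a protein of the doublet microtubule, at 28.3 FPKM. Next came ift57 at 9.97, the dynein light chain gene dnal4b at 9.10, ift46 at 8.93, the microtubule inner protein gene cfap161 at 7.56, bbs2 at 7.05, cfap36 at 6.26 and ift140 at 5.56 FPKM. Over the libraries ift52 ranged from 21.6 to 38.6 FPKM and cfap20 from 20.7 to 35.0 FPKM, so these neighbours in the order overlapped, as did each neighbouring pair from ift57 to ift140.

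The 21 genes that matched by name and missed the count rule had between 0 and 101 counts over all 11 libraries, with a median of 27. They are foxj1b, the assembly factors dnaaf3 (0 counts in every library) and dnaaf3l, the heavy chains dnah3 and dnah9, the intermediate chains dnai1.1, dnai1.2 and dnai2b, the spoke genes rsph4a, rsph9 and rsph14, drc1 and drc3 of the nexin-dynein regulatory complex, tekt1, tekt2 and tekt3, and cfap57, cfap58, cfap73, cfap77 and cfap99. Among them dnai1.1, dnai1.2, rsph4a, rsph9, drc1 and drc3 encode core parts of the motile axoneme. Just inside the rule were dnali1 and cfap45, whose third-highest library had 11 counts, and dnah9l with 12 counts. Just outside were rsph4a and dnai1.2 with 9 counts and cfap58 with 8 counts.

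Foxj1a, which drives motile ciliogenesis in zebrafish, was at 0.335, 1.06 and 0.315 CPM in the controls, at 0.845, 0.183, 0.780 and 0.843 CPM in the lhb/lhcgr mutants, and at 0.614, 1.12, 0.540 and 0.495 CPM in the fshb/lhcgr mutants. The 3 groups overlapped. The log2 difference from controls was 0.22 (SE 0.78, adjusted p = 0.901 from the quasi-likelihood test of edgeR after Benjamini-Hochberg adjustment, as for each adjusted p below where no other tool is named) in lhb/lhcgr mutants and 0.28 (SE 0.79, adjusted p = 0.923) in fshb/lhcgr mutants. Its paralog foxj1b had 19 counts in all libraries together.

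Dnaaf1 (ENSDARG00000012030), a cytoplasmic factor that dynein arms need for their assembly and whose loss stops cilia from beating in zebrafish, had the values by which the set was chosen. Controls had 57, 58 and 66 counts, lhb/lhcgr mutants had 28, 23, 36 and 21 counts, and fshb/lhcgr mutants had 4, 10, 6 and 9 counts. In TMM-scaled CPM, which corrects for depth, these are 3.81, 4.12 and 4.16 in controls, 1.69, 1.41, 1.34 and 1.26 in lhb/lhcgr mutants, and 0.273, 0.659, 0.463 and 0.557 in fshb/lhcgr mutants. All control libraries were above all lhb/lhcgr mutants, and these above all fshb/lhcgr mutants.

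Group means of dnaaf1 were 4.03 ± 0.188 CPM (SD, n = 3) in controls, 1.42 ± 0.186 (n = 4) in lhb/lhcgr mutants and 0.488 ± 0.164 (n = 4) in fshb/lhcgr mutants. The fitted log2 differences were -1.50 and -3.02 from controls and -1.53 between the mutants, and they ran from -1.59 to -1.44, from -3.20 to -2.83 and from -1.70 to -1.33 when each library was left out in turn. The authors' deposited table gives log2 differences of -1.51 and -3.04 from controls. In bulk RNA, fewer cells that express a gene and less RNA per cell cannot be told apart.

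In RefSeq's GRCz12tu assembly dnaaf1 lies on the same chromosome as fshb, with 110 annotated genes between them. Of those, 54 could be matched by symbol and tested. Among these 54, edgeR called 2 higher (3.70%) and 3 lower (5.56%) in lhb/lhcgr mutants, where it called 2.89% and 4.45% of all genes, and 0 either way in fshb/lhcgr mutants. At an unadjusted p under 0.05, lhb/lhcgr mutants had 7 higher and 8 lower (13.0% and 14.8%, against 11.4% and 13.5% of all genes), and 6 were higher and 6 lower in fshb/lhcgr mutants (11.1% each, against 5.69% and 6.11%). Their median log2 differences were -0.06 and 0.07. What part position has in the level of dnaaf1 was not tested.

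Neither of the other assembly factors in the set was called in a comparison. Dnaaf4, a co-chaperone of dynein assembly, was at 3.01 ± 1.33 CPM (SD, n = 3) in controls, 4.97 ± 1.68 (n = 4) in lhb/lhcgr mutants and 4.55 ± 0.826 (n = 4) in fshb/lhcgr mutants, a log2 difference of 0.72 (adjusted p = 0.287) and 0.60 (adjusted p = 0.590). Dnaaf2, which acts with heat shock protein 90 in the same process, was at 1.62 ± 1.15, 1.43 ± 0.873 and 1.62 ± 0.925 CPM, with log2 differences of -0.18 and 0.01. The groups of both genes overlapped.

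**Figure D2:**
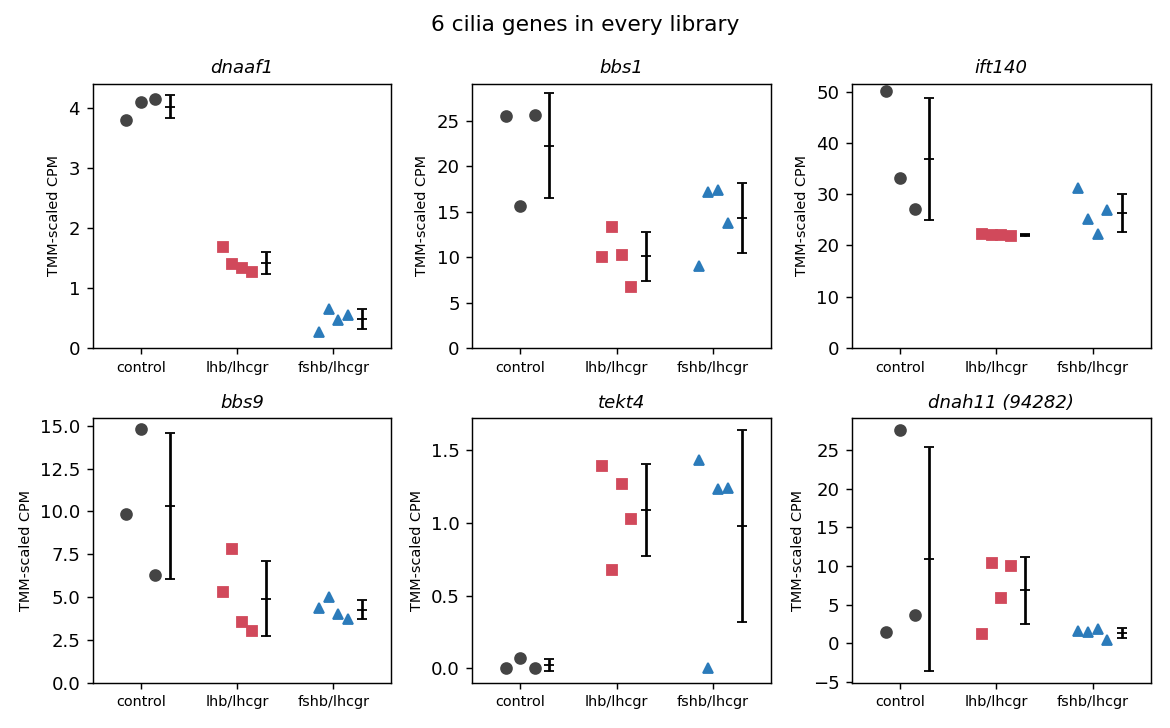
TMM-scaled CPM of 6 genes in each library, with a point per library and the mean ± SD of each group. Controls of dnaaf1 sit between 3.81 and 4.16 CPM, above every mutant library, while dnah11 has a single control at 27.5 CPM and tekt4 is at or near 0 in the controls.

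Outside dnaaf1 and tekt4, edgeR called few genes of the set between lhb/lhcgr mutants and controls. Of the 52 genes, edgeR called 0 higher and bbs1 lower at an adjusted p under 0.05, which is 1 gene or 1.92%, where 7.34% of the 19421 genes tested were called (2.89% higher and 4.45% lower). The share in the set was thus not above that of all genes. Shares here and below were not matched for level, and the 31 axonemal genes lay at a median percentile of 9.90. They therefore do not show that the set differed less than genes of like level. At an unadjusted p under 0.05 there were 7 of 52 genes (13.5%, against 24.9% of all genes). Of these, bbs1, bbs9, dnah12, dnah2, ift140 and rsph10b were lower and ift27 higher, where 13.5% of all genes were lower and 11.4% higher. The libraries of 5 of 52 did not overlap between the groups (9.62%, against 22.8%). The median log2 difference was -0.10 (quartiles -0.36 and 0.32) beside 0.01 over all genes tested. DESeq2 called ift27 higher and bbs1, bbs9, ift140 and rsph10b lower, where it called 6.21% of genes higher and 7.73% lower. Limma-voom called bbs1 lower and 0 genes of the set higher, where it called 4.1% and 2.89% of genes.

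Fshb/lhcgr mutants against controls gave 0 called genes of 52 in edgeR, where 0.0721% of all genes were called (14 genes, 0.0154% higher and 0.0566% lower). At an unadjusted p under 0.05 there were 5 of 52 (9.62%, against 11.8%), with bbs9, cfap52, cfap53, dnah11 and ift140 lower. All 5 went the same way, and at this cut 6.11% of all genes were lower and 5.69% higher. The libraries of 4 genes did not overlap (7.69%, against 10.4%), and the median log2 difference was -0.11 beside -0.03 over all genes. DESeq2 called 0 of the 52 higher and dnah11 (ENSDARG00000094282) lower (adjusted p = 0.0244), where it called 0.69% of genes higher and 0.837% lower. The edgeR log2 difference of this gene was -2.98 and became -0.92 without control 2. Limma-voom called 0 of the 52, where it called 0.0309% of genes lower and 0 genes higher.

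Between the mutants, 0 of 52 genes were called in edgeR, where 2.37% of all genes were (1.45% higher and 0.917% lower). At an unadjusted p under 0.05 there were 5 of 52 (9.62%, against 18% of all genes), dnah2 and rsph10b higher and cfap36, dnah11 and ift27 lower in fshb/lhcgr mutants. Of all genes, 9.19% were higher and 8.85% lower at this cut. The groups of 4 genes did not overlap (7.69%, against 12.9%). The median log2 difference was -0.10 beside -0.02 over all genes. DESeq2 called the same dnah11 gene lower (adjusted p = 0.0320) and 0 higher, where it called 3.43% and 4.25% of genes. Limma-voom called 0 of the 52, where it called 1.19% of genes higher and 0.778% lower. The 3 comparisons share libraries, so their values are not independent.

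**Figure D3:**
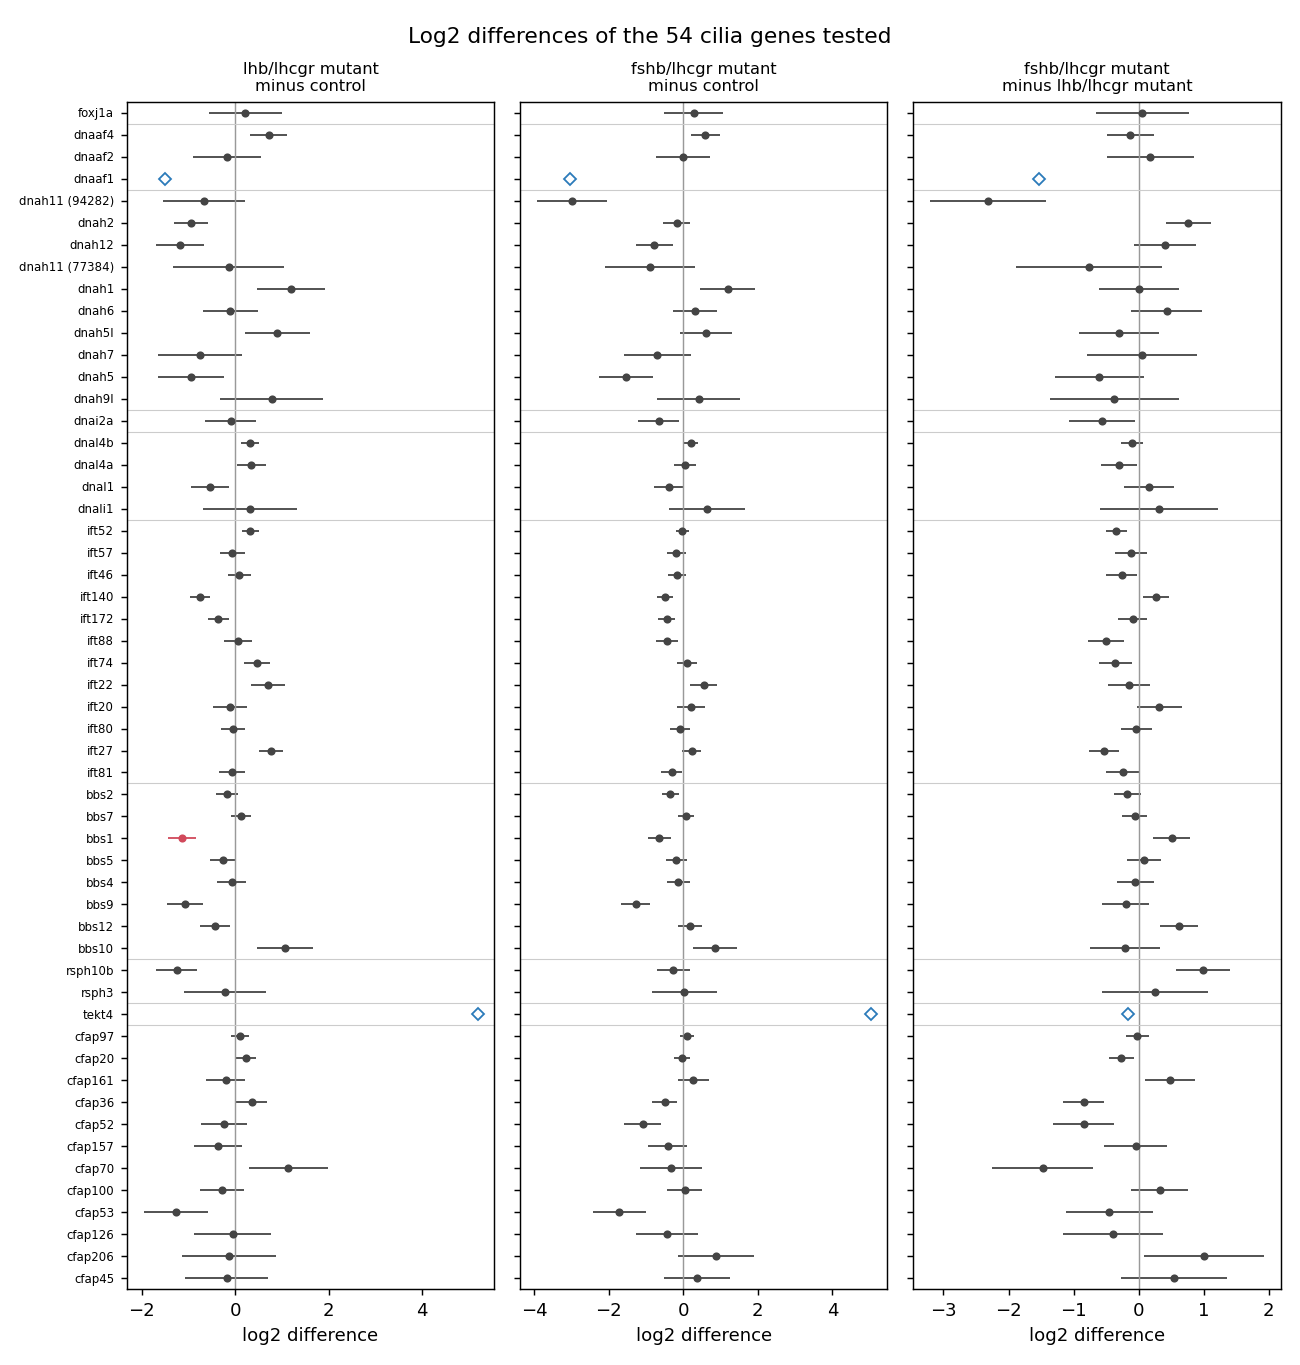
Log2 difference ± SE of 54 genes by role in the 3 comparisons, each panel with a vertical line at 0. The red point is bbs1, called in lhb/lhcgr mutants, and open diamonds with no error bar are dnaaf1, at -1.50, -3.02 and -1.53, and tekt4.

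Dynein heavy chains, the motor subunits, were measured by 10 genes, all under 1 FPKM, with a median level of 0.084 FPKM. Summed over the 10 genes they reached 23.1, 44.0 and 23.1 CPM in controls, 10.7, 23.3, 21.8 and 22.8 CPM in lhb/lhcgr mutants and 19.0, 16.0, 13.5 and 19.8 CPM in fshb/lhcgr mutants. Control 2 stood above the rest, lhb/lhcgr mutant 1 below, and the lhb/lhcgr mutants overlapped the controls. All fshb/lhcgr mutants lay below every control. EdgeR called none of the 10 in a comparison.

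The highest of them, the dnah11 gene with the identifier ENSDARG00000094282, an outer-arm heavy chain by name, had the largest ratio of highest to lowest library, 63.5, among the axonemal genes with no library at 0. It had 1.47, 27.5 and 3.72 CPM in controls, 1.21, 10.4, 5.87 and 10.0 CPM in lhb/lhcgr mutants, and 1.64, 1.52, 1.93 and 0.433 CPM in fshb/lhcgr mutants. A single control carried the control mean, and 3 lhb/lhcgr mutants lay above every fshb/lhcgr mutant. The log2 difference of fshb/lhcgr mutants from controls was -2.98 (SE 0.94, adjusted p = 0.293) and became -0.92 without control 2. From lhb/lhcgr mutants it was -2.32 (SE 0.89, adjusted p = 0.196). A second gene with the same symbol (ENSDARG00000077384) was at 0 to 1.82 CPM, and how reads were shared between such copies is not given in the sources used here.

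Inner-arm heavy chains gave other values. Dnah2 was at 9.84, 4.61 and 8.38 CPM in controls, at 3.44, 4.71, 3.68 and 4.03 CPM in lhb/lhcgr mutants and at 8.67, 5.08, 3.94 and 9.22 CPM in fshb/lhcgr mutants. The lhb/lhcgr mutants were low and even but overlapped control 2, with a log2 difference of -0.94 (SE 0.37, adjusted p = 0.135). Dnah12 was at 5.42 ± 2.27 CPM (SD, n = 3) in controls, 2.40 ± 1.59 (n = 4) in lhb/lhcgr mutants and 3.17 ± 1.13 (n = 4) in fshb/lhcgr mutants, with log2 differences of -1.18 and -0.77 (adjusted p = 0.163 and 0.582). Dnah1, another inner-arm gene, had positive log2 differences of 1.19 in both mutants (adjusted p = 0.342 and 0.556), and the remaining 6 heavy chains averaged at most 1.39 CPM in each group.

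**Figure D4:**
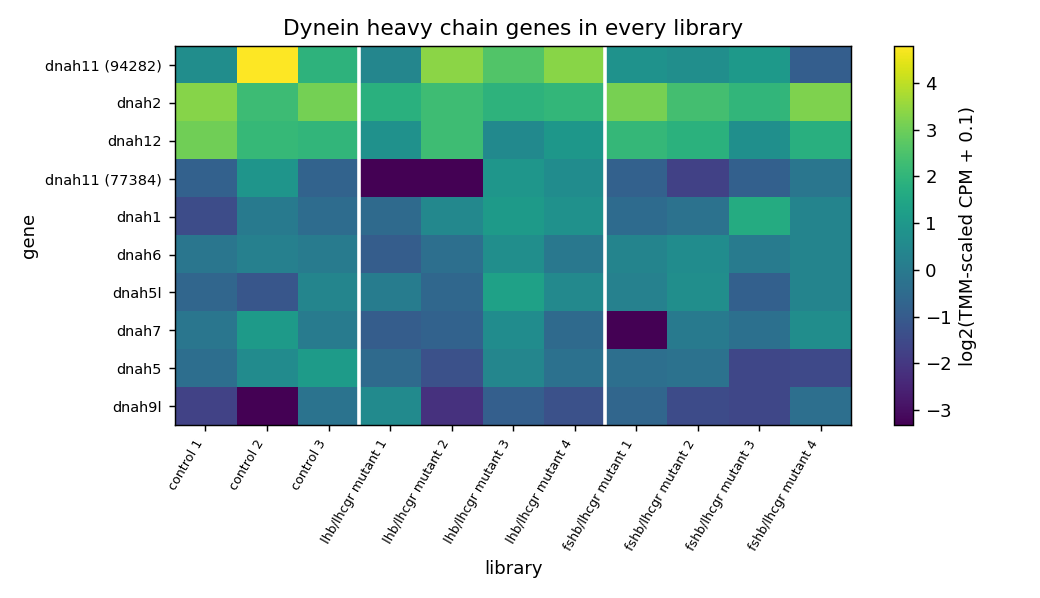
Heat map of log2 CPM, with a small offset added, for the 10 dynein heavy chain genes (vertical) in the 11 libraries (horizontal, by group). The highest value is dnah11 in control 2 at 27.5 CPM, and most other genes stay near or under 1 CPM throughout.

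Heavy chain genes are long, and length moved with the groups. Deposited counts and FPKM imply a median length of 13.3 kb for the 10 genes against 2.48 kb for all genes tested. Relative to the mean library, the slope of log2 counts per doubling of gene length was 0.202, 0.135 and 0.0613 in controls. It was -0.160, -0.109, -0.00297 and -0.0890 in lhb/lhcgr mutants, with -0.0186 to -0.000352 in the fshb/lhcgr group. The median log2 difference of the 10 genes was -0.40 in lhb/lhcgr mutants, with -0.44 in the fshb/lhcgr group. These values were -0.05 and -0.09 after the length trend was removed, and 0.11 and -0.16 without control 2.

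The intermediate chain gene dnai2a, an outer-arm subunit, was at 12.4, 13.1 and 7.37 CPM in controls, 23.0, 8.56, 4.20 and 5.36 CPM in lhb/lhcgr mutants and 8.53, 9.03, 2.70 and 7.49 CPM in fshb/lhcgr mutants. Its groups overlapped, with lhb/lhcgr mutant 1 the highest library of all. The light chain gene dnal4b was at 25.6, 20.4 and 22.9 CPM in controls and at 33.4, 28.3, 26.6 and 26.0 CPM in lhb/lhcgr mutants, which lay above every control by a narrow margin (log2 difference 0.32, SE 0.19, adjusted p = 0.328). Fshb/lhcgr mutants lay at 30.6, 25.1, 28.3 and 22.4 CPM, among both. The other light chains dnal4a, dnal1 and dnali1 were not called.

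Tekt4 (ENSDARG00000028899) encodes a tektin, a filament protein inside the doublet microtubules of motile cilia and sperm tails. It had 0, 1 and 0 counts in controls, 23, 11, 34 and 17 counts in lhb/lhcgr mutants and 21, 0, 16 and 20 counts in fshb/lhcgr mutants. Every lhb/lhcgr mutant was above every control, and 3 of 4 fshb/lhcgr mutants were, the other having none. It met the count rule through the mutants alone, so it could enter the set only by being high there. Group means were 0.0237 ± 0.0410 CPM (SD, n = 3) in controls, 1.09 ± 0.315 (n = 4) in lhb/lhcgr mutants and 0.976 ± 0.658 (n = 4) in fshb/lhcgr mutants, and they are given with no test. Tekt1 and tekt2, which missed the rule, were at 0 counts in all controls too. In lhb/lhcgr mutants they had 14, 6, 11 and 0 counts and 0, 0, 18 and 0 counts. In fshb/lhcgr mutants the authors' scaled mean count of tekt1 was 1.94, against 0 in controls. For tekt2 their comparison of this group holds no entry. Tekt3, which also missed the rule, went the other way on few counts. Its deposited log2 differences were -2.38 in lhb/lhcgr mutants (scaled means 0.721 against 3.87 in controls) and -2.18 in fshb/lhcgr mutants (0.750 against 3.38).

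Male germ cells also use tektins, and 5 of 6 listed markers of that lineage were found. They summed to 11.6, 5.89 and 8.51 CPM in controls, 33.9, 13.8, 45.2 and 44.1 CPM in lhb/lhcgr mutants and 9.08, 14.9, 11.7 and 39.2 CPM in fshb/lhcgr mutants. The lhb/lhcgr mutants lay above every control, while among fshb/lhcgr mutants the library with no tekt4 count had a higher sum than 2 of those with some. Of the markers tssk6, a spermatid kinase gene, was at 0 everywhere, odf3b averaged 0.540, 9.99 and 1.27 CPM in controls, lhb/lhcgr and fshb/lhcgr mutants, and edgeR called none. The part of these markers in the tekt4 values was not tested.

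Radial spoke gene rsph10b was at 1.81, 3.12 and 3.78 CPM in controls, 0.724, 1.47, 1.11 and 1.57 CPM in lhb/lhcgr mutants and 2.05, 2.83, 2.78 and 2.04 CPM in fshb/lhcgr mutants. The lhb/lhcgr mutants lay below both other groups without overlap. Against controls the log2 difference was -1.25 (SE 0.44, adjusted p = 0.0968), and fshb/lhcgr mutants were at 0.99 above lhb/lhcgr mutants (SE 0.42, adjusted p = 0.227). DESeq2 called the first.

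Among the CFAP genes, 12 tested and none called by edgeR, the most abundant was cfap97 at 82.3 ± 17.3 CPM (SD, n = 3) in controls, 88.8 ± 18.2 (n = 4) in lhb/lhcgr mutants and 87.6 ± 9.15 (n = 4) in fshb/lhcgr mutants. Cfap53, a microtubule inner protein needed for left-right patterning in zebrafish, was at 3.15, 1.84 and 1.45 CPM in controls, 1.21, 1.47, 0.371 and 0.542 CPM in lhb/lhcgr mutants and 0.136, 0.857, 0.540 and 1.05 CPM in fshb/lhcgr mutants. Its controls lay above every fshb/lhcgr mutant, with a log2 difference of -1.71 (SE 0.71, adjusted p = 0.376).

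Cfap52, another protein inside the doublet microtubule, was at 5.62, 7.95 and 6.37 CPM in controls, 7.79, 4.46, 5.91 and 4.34 CPM in lhb/lhcgr mutants, and 1.16, 5.34, 1.31 and 4.64 CPM in fshb/lhcgr mutants. The fshb/lhcgr mutants split into a lower and a higher pair, all below the controls (log2 difference -1.09, SE 0.50, adjusted p = 0.412). Cfap36, which binds the ciliary GTPase Arl3 in mammals, was at 4.02, 6.67 and 9.52 CPM in controls, 7.37, 8.80, 9.51 and 8.79 CPM in lhb/lhcgr mutants and 4.37, 5.08, 3.40 and 6.31 CPM in fshb/lhcgr mutants. The mutant groups did not overlap each other and both overlapped the controls, with a log2 difference between mutants of -0.85 (SE 0.31, adjusted p = 0.172). Cfap70 ranged from 2.26 to 12.3 CPM among lhb/lhcgr mutants alone.

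The 12 IFT genes all reached the count rule, and edgeR called none in a comparison. Summed over the 12 they reached 233 ± 39.0 CPM (SD, n = 3) in controls, 239 ± 25.6 (n = 4) in lhb/lhcgr mutants and 206 ± 25.7 (n = 4) in fshb/lhcgr mutants. Ift52, the highest, was at 53.0 ± 10.9, 66.4 ± 7.42 and 52.4 ± 6.77 CPM. The median log2 difference of the 12 was 0.01 in lhb/lhcgr mutants, with -0.13 in the fshb/lhcgr group.

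Ift140, a subunit of the IFT-A complex that serves the return journey, was at 50.1, 33.1 and 27.2 CPM in controls, 22.2, 22.1, 22.0 and 21.8 CPM in lhb/lhcgr mutants and 31.1, 25.2, 22.2 and 27.0 CPM in fshb/lhcgr mutants. The lhb/lhcgr mutants were nearly equal and lay below all controls, and just below the lowest fshb/lhcgr mutant. The log2 difference from controls was -0.74 (SE 0.21, adjusted p = 0.0505). DESeq2 (0.0175), a filter of 1 CPM in 3 libraries (0.0479) and the fit without control 3 (0.0317) called ift140. No other alternative fit did, limma-voom and the length correction included. When each library was left out in turn, the log2 difference ran from -0.93 to -0.45, with adjusted p of 0.0317 to 0.255.

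Ift27, a small GTPase of the IFT-B complex, was at 17.2, 15.5 and 12.9 CPM in controls, 33.2, 15.3, 27.2 and 27.9 CPM in lhb/lhcgr mutants and 19.5, 18.1, 14.5 and 19.4 CPM in fshb/lhcgr mutants. Lhb/lhcgr mutant 2 lay among the controls and the other 3 above them, with a log2 difference of 0.77 (SE 0.26, adjusted p = 0.0833). DESeq2 (0.0413), the length correction (0.0405) and the fit without lhb/lhcgr mutant 2 (0.0326) called it. No other alternative fit did, limma-voom included. Ift74, which binds tubulin with Ift81, was at 7.09, 5.04 and 9.08 CPM in controls and at 9.42, 10.9, 9.43 and 9.21 CPM in lhb/lhcgr mutants, above every control by a small step (log2 difference 0.46, SE 0.28, adjusted p = 0.332).

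Fshb/lhcgr mutants had 7.85, 7.18, 6.48 and 8.85 CPM of ift74, which overlapped the controls and lay below the lhb/lhcgr mutants. Ift22, a further GTPase of IFT-B, was at 2.74, 3.69 and 2.65 CPM in controls, 6.34, 3.36, 4.16 and 5.84 CPM in lhb/lhcgr mutants, and 5.80, 3.95, 3.86 and 4.15 CPM in fshb/lhcgr mutants. Every fshb/lhcgr mutant lay above every control (log2 difference 0.55, SE 0.36, adjusted p = 0.576).

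Among the BBSome genes is bbs1, the single gene that edgeR called lower among the 52. Bbs1 (ENSDARG00000075169), a BBSome subunit and a common site of Bardet-Biedl syndrome mutations in people, was at 25.5, 15.6 and 25.7 CPM in controls, 10.1, 13.3, 10.3 and 6.68 CPM in lhb/lhcgr mutants, and 9.08, 17.1, 17.4 and 13.8 CPM in fshb/lhcgr mutants. The lhb/lhcgr mutants lay below every control, while fshb/lhcgr mutants overlapped both groups. Bbs1 fell from 22.3 ± 5.77 (SD, n = 3) to 10.1 ± 2.71 CPM (n = 4), a log2 difference of -1.14 (SE 0.30, adjusted p = 0.0370). In fshb/lhcgr mutants, at 14.3 ± 3.87 CPM (n = 4), it was -0.64 (adjusted p = 0.429), and the difference between the mutants was 0.51 (adjusted p = 0.371).

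The bbs1 call did not hold when control 1 was left out (adjusted p = 0.124), nor without control 3 (0.0897) or lhb/lhcgr mutants 1, 3 or 4 (0.0737, 0.0716 and 0.108), with library size as the only scaling (0.0560), with only the 2 groups in the fit (0.0571) and with the length correction (0.0540). Its log2 difference stayed negative in these fits.

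Bbs9, a further BBSome subunit, was at 9.84, 14.8 and 6.30 CPM in controls, 5.31, 7.82, 3.53 and 3.01 CPM in lhb/lhcgr mutants and 4.37, 5.01, 4.01 and 3.71 CPM in fshb/lhcgr mutants. The fshb/lhcgr mutants lay below all controls and the lhb/lhcgr mutants overlapped control 3. Against controls the log2 difference was -1.07 (SE 0.38, adjusted p = 0.101) in lhb/lhcgr mutants, with -1.27 (SE 0.39, adjusted p = 0.282) in the fshb/lhcgr group.

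The other BBSome subunits bbs2, bbs4, bbs5 and bbs7 had log2 differences of -0.17, -0.07, -0.26 and 0.13 in lhb/lhcgr mutants and of -0.35, -0.13, -0.18 and 0.07 in fshb/lhcgr mutants. The chaperonin-like genes bbs10 and bbs12, which help to put the BBSome together, differed by 1.06 and -0.43 in lhb/lhcgr mutants and by 0.85 and 0.19 in fshb/lhcgr mutants, and none of these 6 was called. Summed over the 8 genes the level was 105 ± 12.0 CPM (SD, n = 3) in controls, 84.3 ± 12.3 (n = 4) in lhb/lhcgr mutants and 89.4 ± 2.31 (n = 4) in fshb/lhcgr mutants.

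Ciliary genes with other kinds of names were read from a list of 146 names, some of them synonyms of the same gene. They led to 124 separate genes, of which 105 were tested. In lhb/lhcgr mutants edgeR called 2 of 105 higher, where it called 2.89% of all genes, and 0 lower (4.45%), and the 2 act at the transition zone, the gate at the base of the cilium. B9d2, of the B9 protein complex, was at 8.30, 9.29 and 10.6 CPM in controls and at 17.4, 16.1, 17.1 and 23.3 CPM in lhb/lhcgr mutants, above every control. It rose by a log2 value of 0.98 (SE 0.24, adjusted p = 0.0278). Tmem237b, a membrane protein of this zone, was at 17.6, 20.9 and 21.7 CPM in controls and at 34.4, 29.7, 30.5 and 29.7 CPM in lhb/lhcgr mutants, again without overlap. It rose by 0.63 (SE 0.18, adjusted p = 0.0444).

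The call of b9d2 did not hold when control 1 was left out (adjusted p = 0.1001), nor without control 2 (0.0520) or lhb/lhcgr mutant 4 (0.0950), with only the 2 groups in the fit (0.0516) and with the length correction (0.0992). That of tmem237b was lost in each of the 11 fits that left out a library (adjusted p of 0.0509 to 0.152) except the fit without fshb/lhcgr mutant 3 (0.0464), with no filter (0.0940), with only the 2 groups in the fit (0.0732) and with the length correction (0.141). At an unadjusted p under 0.05, lhb/lhcgr mutants had 7 of the 105 higher and 12 lower, where 11.4% and 13.5% of all genes were, and the median log2 difference was -0.06.

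DESeq2 called 3 of the 105 higher in lhb/lhcgr mutants, ccna1 besides b9d2 and tmem237b, and 4 lower, where it called 6.21% and 7.73% of genes. The 4 are rfx2, kif3b, the transition zone gene cc2d2a (log2 difference -1.03, adjusted p = 0.0253 from DESeq2) and CABZ01072607.1 (-0.82, adjusted p = 0.00836 from DESeq2), which the reference names list as dync2h1, the motor heavy chain of retrograde IFT. Limma-voom called CABZ01072607.1 lower (adjusted p = 0.0439) and b9d2 and tmem237b higher. In fshb/lhcgr mutants and between the mutants, edgeR called 0 of the 105 in either direction. There, 5 were higher and 3 lower than in controls at an unadjusted p under 0.05 (5.69% and 6.11% of all genes), and 4 higher and 6 lower than in lhb/lhcgr mutants (9.19% and 8.85%). DESeq2 called ccna1 higher than in controls, and between the mutants mkks higher and pkd1a lower (all genes as given above for DESeq2), and limma-voom called 0.

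Of the 30 genes for dynein docking, assembly and the axoneme on this list that were tested, none was called in a comparison by edgeR, DESeq2 or limma-voom. They include zmynd10, lrrc6 and pih1d3, which act with dnaaf1 in building dynein arms, and pih1d3 had a log2 difference of 1.57 (SE 0.66, adjusted p = 0.158) in lhb/lhcgr mutants. Of the 28 genes of the transition zone and basal body, edgeR called 2, both higher in lhb/lhcgr mutants, where it called 2.89% of all genes higher. Of the 18 for IFT and its motors under other names, it called 0. Over all genes, edgeR called 7.34% in lhb/lhcgr mutants, 0.0721% in fshb/lhcgr mutants and 2.37% between the mutants. Counts from lists this short are not read as a result about them. The anterograde motor subunit kif3b was at 50.9, 28.6 and 32.4 CPM in controls and at 22.6, 21.5, 25.8 and 23.7 CPM in lhb/lhcgr mutants (log2 difference -0.67, SE 0.20, adjusted p = 0.0607), below every control, and DESeq2 called it (adjusted p = 0.0266).

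Markers of a multiciliated cell programme had mixed levels. Of 13 listed genes 11 were found, and 6 of these averaged under 1 CPM, namely foxj1a, foxj1b, tp73, myb, gmnc, with 10 counts in all, and CU633857.1, which the reference names list as mcidas. This last gene had 0 counts in all controls, 5, 7, 13 and 1 counts in lhb/lhcgr mutants and 0, 0, 0 and 1 counts in fshb/lhcgr mutants, too few to be tested. The factors rfx2 and rfx3, which many ciliated cells express, averaged 60.6, 42.8 and 48.9 CPM and 16.2, 12.3 and 11.4 CPM in controls, lhb/lhcgr and fshb/lhcgr mutants. EdgeR called neither, while DESeq2 called rfx2 lower in lhb/lhcgr mutants (adjusted p = 0.0470), whose libraries lay below every control. Plk4 averaged 43.4, 38.0 and 42.5 CPM and e2f5 96.7, 81.5 and 88.8 CPM in controls, lhb/lhcgr and fshb/lhcgr mutants, and edgeR called neither. The summed level of the list was 615 to 889 CPM in controls, 868 to 1181 CPM in lhb/lhcgr mutants and 1036 to 1393 CPM in fshb/lhcgr mutants. Most of it was ccna1, a cyclin that oocytes also express, with means of 568, 922 and 1059 CPM.

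Summed markers of other cell types overlapped between groups in part. Epithelial markers, of which 10 of 10 were found, summed to 1375 to 2354 CPM in controls, 2153 to 2869 CPM in lhb/lhcgr mutants and 914 to 1414 CPM in fshb/lhcgr mutants. Erythrocyte markers were at 26.4 to 72.3, 46.0 to 105 and 81.5 to 160 CPM, leukocyte markers at 10.4 to 32.0, 17.5 to 79.5 and 26.0 to 43.2 CPM, and theca markers at 284 to 567, 260 to 279 and 348 to 469 CPM. Granulosa markers, at 563 to 1290, 431 to 730 and 487 to 841 CPM, and oocyte markers, at 3250 to 4428, 2773 to 4232 and 4160 to 4815 CPM, overlapped between each mutant group and the controls. Epithelial, erythrocyte and leukocyte sums in lhb/lhcgr mutants and leukocyte and epithelial sums in fshb/lhcgr mutants overlapped the controls as well, theca sums were below all controls in lhb/lhcgr mutants, and erythrocyte sums above all controls in fshb/lhcgr mutants. Within the epithelial list epcam was at 663 to 900 CPM in controls, 921 to 1253 CPM in lhb/lhcgr mutants and 46.2 to 75.9 CPM in fshb/lhcgr mutants. Krt91 averaged 24.4, 107 and 46.9 CPM in these groups. Against controls, edgeR called krt91 higher in lhb/lhcgr mutants (adjusted p = 0.00382) and epcam lower in fshb/lhcgr mutants (adjusted p = 7.99e-07), and no other gene of this list. The granulosa list includes lhcgr and fshr, which are among the mutated genes. Lhcgr alone was at 104 to 336 CPM in controls, 115 to 188 CPM in lhb/lhcgr mutants and 102 to 171 CPM in fshb/lhcgr mutants. The granulosa sum is therefore not a measure of granulosa cells alone. The part of the listed cell types in the values of the ciliary genes was not tested.

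Positions relative to the mutated loci were read in RefSeq's GRCz12tu assembly, where 53 of the 55 genes could be placed. Dnaaf1 and dnah2 share a chromosome with fshb, dnai2a and rsph10b with fshr, and cfap36 and cfap43 with lhb and lhcgr. Cfap43, too low to be tested, was at 0.335, 1.28 and 0.882 CPM in controls, 0.181, 0.245, 0.483 and 0.602 CPM in lhb/lhcgr mutants, and 0, 0.0659, 0 and 0.433 CPM in fshb/lhcgr mutants. The controls overlapped both mutant groups.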

How the data were processed

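RNA-seq of 11 follicle libraries was read from the table of raw counts per gene and the FPKM table that the authors deposited. Per the labels' protocols, RNA was extracted with Trizol and libraries were made with a TruSeq kit after poly-T selection. DESeq2 1.20.0 appears in the submitters' processing notes. The authors deposited, for each mutant against controls, log2 differences, unadjusted p-values and a mean signal per group (size-factor scaled counts). From these, only the log2 differences of dnaaf1 and tekt3 and the means of tekt1 and tekt3 are used. No source used here gives the aligner, counting tool, strand setting, genome build or annotation. Coordinates are therefore not printed, and near-identical copies such as both dnah11 genes may share reads. No sequences are printed.

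The deposited counts were tested in R 4.3.3 with edgeR 4.0.16. After filterByExpr (minimum count 10, minimum total 15) 19421 genes were left. With TMM scaling, 1 robust quasi-likelihood fit of group means covered all 11 libraries (common biological coefficient of variation 0.384). P-values are 2-sided and were adjusted by Benjamini-Hochberg over all genes tested, with calls under 0.05. The script was tested on simulated data. CPM are TMM-scaled counts per 1e6. Gene length was taken from the ratio of counts to FPKM.

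Groups and replicate numbers came from the sample titles. The members and lists were chosen with earlier results of these data known. Genes named with full values are dnaaf1, called genes, tekt4, foxj1a, the gene with the highest FPKM of each role, the 4 largest rises and falls without overlap and with at least 1 CPM in the higher group, and called genes of the wider ciliary list. The order of levels names the 10 genes with the highest FPKM. Dnah2, dnah12, dnah1, dnaaf2, ift27, cfap70, cfap43, kif3b, cc2d2a, pih1d3, CABZ01072607.1, CU633857.1, tekt1, tekt2, epcam, krt91 and the other BBSome genes were added after their values were seen. Tekt3 was likewise added after its values were seen. Marker lists covered multiciliated cells, epithelium, granulosa, theca, oocyte, erythrocytes, leukocytes and the male germ line. Alternatives were RLE, upper-quartile and library-size scaling, no filter, a minimum of 1 CPM in 3 libraries, limma-voom (limma 3.58.1), DESeq2 1.42.0, a fit of 2 groups alone, a replicate block, a length correction, each library left out, and, chosen after seeing the data, lhb/lhcgr mutants 3 and 4 left out together.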

Additional observations from a re-analysis of the deposited data

Results flagged for a closer look

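Among the 21 named genes, each group of 4 libraries was searched for a library that stands far from the others, by the share of the group's range taken up by the gap to its nearest neighbour. With independent, normally distributed values, chance gives about 1 such library in 20 groups, and 4 were found in 42 groups. The groups share libraries, some genes are near 0 CPM, and some were named for their values. That rate therefore cannot be applied here. For tekt4, fshb/lhcgr mutant 2 was at 0 CPM beside 1.23 to 1.43 CPM in the other libraries of its group (gap ratio 0.862). For ift74, lhb/lhcgr mutant 2 was at 10.9 CPM beside 9.21 to 9.43 CPM (gap ratio 0.867). For ift22, fshb/lhcgr mutant 1 was at 5.80 CPM beside 3.86 to 4.15 CPM (gap ratio 0.851). For foxj1a, lhb/lhcgr mutant 2 was at 0.183 CPM beside 0.780 to 0.845 CPM (gap ratio 0.902).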

How the results depend on the processing

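Outside tekt4, which is given with no test, the genes called between lhb/lhcgr mutants and controls depended on the settings. In the main fit they were 0 higher and 1 lower (bbs1). The count called lower was 0 with library size only, with only the 2 groups compared and with the length correction, 2 with a filter of 1 CPM in 3 libraries and 4 with DESeq2. Ift27 was called higher with DESeq2, with the length correction and without lhb/lhcgr mutant 2, while limma-voom called 0 higher. Leaving out lhb/lhcgr mutants 3 and 4 together was added after the data were seen. It gave 0 called higher and 0 lower (adjusted p of 0.206 for bbs1). Leaving out each library in turn gave 0 to 1 called lower. Among fshb/lhcgr mutants against controls, DESeq2 called 1 lower where edgeR called 0, and between the mutants it called 1 lower. With tekt4 included, so over 53 genes, the median log2 difference with library size only was 0.035 in lhb/lhcgr mutants (all genes 0.12). Between the mutants it was -0.24 (all genes -0.15). Leaving out each library in turn, it ran from -0.18 to 0.02, from -0.17 to -0.02 and from -0.17 to -0.02 in the 3 comparisons. The causes were not tested.

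The replicate numbers were not taken to pair the samples, since not every pair's correlation was over 0.1: deviations of libraries with the same number correlated at -0.110 to 0.165 in 10 pairs (5 over 0.1, with all 3 pairs of number 1 at 0.147 to 0.165), and those with different numbers at -0.222 to 0.176 in 30 pairs (4 over 0.1). Not every library correlated best with its own number. These numbers are those of the sample titles. The library names in the labels carry other numbers, which neither this check nor the block below used. With the replicate number as a block, 0 genes were called higher and 0 lower in lhb/lhcgr mutants (adjusted p of 0.0747 for bbs1, 0.0654 for b9d2 and 0.0970 for tmem237b), and with block and length correction together 0 and 0 as well. Of 1445 values of named genes under alternatives, dnaaf1 and tekt4 included, 1390 were counted as unchanged. For dnaaf1 this means a log2 difference within its SE of the main value, whatever its adjusted p. For the other genes it means the same side of the threshold. Among these, tekt4 apart, only bbs1, b9d2 and tmem237b in lhb/lhcgr mutants were called in the main fit. The remaining values counted as unchanged by staying uncalled, so the total does not measure how well calls held. With each library left out in turn, the call was lost in 5 of 11 fits for bbs1, 3 for b9d2 and 10 for tmem237b. No called value changed sign. Uncalled values changed sign in 45 cases, among them dnah11 in lhb/lhcgr mutants, -0.67 in all libraries and 1.40 without control 2. The order of the 10 highest levels held the same 10 genes when computed from CPM per length. A rule of any count would take 75 genes and one of 20 counts in 4 libraries 42. Genes under about 1 CPM rest on few counts at these depths, and no limit of detection was computed for them.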
